A study of Mus musculus with 2 samples.

Results

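The vascular endothelial growth factor (VEGF) ligands, their receptor tyrosine kinases and the neuropilin co-receptors were followed across the cells of the mouse mesentery. The 10 genes were chosen by symbol, and all 10 were found among the 27998 genes of the count matrix. They are 5 ligands (Vegfa, Vegfb, Vegfc, Pgf and Figf, the older symbol of Vegfd), 3 receptor kinases (Kdr, Flt1 and Flt4) and 2 neuropilins (Nrp1 and Nrp2). The cells came from the digested whole mesentery of 2 untreated wild-type male C57BL/6N mice, with 1 droplet library per mouse, counted at the 3′ end of transcripts with unique molecular identifiers (UMIs). The labels give no age at harvest. The title of the series concerns mesenchymal cells positive for PDGFRa and gp38 and group 2 innate lymphoid cells (ILC2). There was 1 group of animals, so the comparisons below are between cell classes of the same 2 mice and not between treatments.

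VEGF ligands are secreted dimers. VEGF-A, made from Vegfa, binds the receptors VEGFR1 (Flt1) and VEGFR2 (Kdr), and VEGFR2 carries most of its growth and permeability signal in blood endothelium. VEGF-B and placental growth factor (Pgf) bind VEGFR1, which also acts as a decoy that holds VEGF-A away from VEGFR2. VEGF-C (Vegfc) and VEGF-D (Figf) are ligands of VEGFR3 (Flt4), best known for the growth of lymphatic vessels, and processed VEGF-C can also bind VEGFR2. Mouse VEGF-D, unlike human VEGF-D, is known to bind VEGFR3 but not VEGFR2. Neuropilins have no kinase of their own. They bind VEGFs beside the kinases and class 3 semaphorins beside plexins.

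The windows upstream of the 3 receptor kinases and of Figf are shown because the results on endothelial-like and mesothelial-like cells turn on these 4 genes. Each sequence is the RefSeq strand of the gene over the 250 bases before its annotated start, in build GRCm38.p6. Capitals mark matches, on either strand, to the GC box GGGCGG, the TATA box TATAAA, the hypoxia-factor cores ACGTG and GCGTG, and the ETS-factor cores CCGGAA and CAGGAA.
Kdr: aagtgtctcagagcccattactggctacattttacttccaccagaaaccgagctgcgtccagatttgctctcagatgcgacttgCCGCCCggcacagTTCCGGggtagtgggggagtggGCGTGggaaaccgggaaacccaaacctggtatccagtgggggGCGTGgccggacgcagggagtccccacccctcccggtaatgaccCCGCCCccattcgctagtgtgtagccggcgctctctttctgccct
Flt1: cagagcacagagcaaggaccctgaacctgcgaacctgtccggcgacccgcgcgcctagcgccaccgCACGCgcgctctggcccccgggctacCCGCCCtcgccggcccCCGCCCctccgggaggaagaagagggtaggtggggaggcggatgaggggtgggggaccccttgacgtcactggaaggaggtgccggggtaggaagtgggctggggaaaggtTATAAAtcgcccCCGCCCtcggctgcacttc
Flt4: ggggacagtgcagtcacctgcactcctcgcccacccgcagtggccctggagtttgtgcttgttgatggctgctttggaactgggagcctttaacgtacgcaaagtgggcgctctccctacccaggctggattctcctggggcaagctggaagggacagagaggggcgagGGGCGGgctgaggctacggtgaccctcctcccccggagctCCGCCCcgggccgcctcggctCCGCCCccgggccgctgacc
Figf: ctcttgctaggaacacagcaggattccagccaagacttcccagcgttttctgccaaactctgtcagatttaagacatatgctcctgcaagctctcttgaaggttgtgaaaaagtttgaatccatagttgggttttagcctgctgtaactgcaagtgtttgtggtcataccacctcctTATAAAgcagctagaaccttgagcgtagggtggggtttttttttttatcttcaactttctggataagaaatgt

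The Kdr window lies at chr5:75978456-75978705 on the minus strand and has a G+C content of 61.6%. It holds 2 GC boxes, 2 copies of GCGTG and 1 CCGGAA, and no TATAAA. The Flt1 window at chr5:147726012-147726261, also on the minus strand, has a G+C content of 70.4% with 3 GC boxes, 1 GCGTG and a TATAAA 31 bases before the start. The Flt4 window at chr11:49609429-49609678 on the plus strand has a G+C content of 68.4% and 3 GC boxes, with no TATAAA. The Figf window at chrX:164373272-164373521 on the plus strand differs in letters from the receptors: its G+C content is 42.4%, it holds no GC box, and it has a TATAAA 73 bases before the start. Among 32851 promoter windows of the same length, 32.7% hold GGGCGG, 12.4% TATAAA, 16.6% ACGTG, 28.2% GCGTG, 12% CCGGAA and 25.7% CAGGAA. A match describes these letters only. Starts differ between RefSeq and GENCODE: the Flt4 window lies inside the GENCODE span of the gene given next, and the Figf window overlaps it, with its TATAAA inside it.

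In the GENCODE annotation of the same assembly, Kdr spans positions 75932827 to 75978458 and Flt1 positions 147561604 to 147726011 of chromosome 5, both on the minus strand. Flt4 spans 49609263 to 49652739 of chromosome 11 and Figf 164373378 to 164402650 of chromosome X, both on the plus strand. Vegfa is on chromosome 17 (46016993 to 46032369), Vegfb on 19 (6982473 to 6987651) and Pgf on 12 (85166635 to 85177790), all on the minus strand. Vegfc (54077606 to 54187096) and Nrp1 (128358604 to 128503363) are on the plus strand of chromosome 8, and Nrp2 on the plus strand of chromosome 1 (62703285 to 62818695). Nrp2 overlaps the antisense gene Gm29083, and the sources used here do not state whether the counting used strand. On their own strand, Nrp2 also overlaps Gm37121 and Nrp1 overlaps the microRNA gene Mir1903.

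The libraries held 1517 and 1687 cell barcodes with 5137671 and 5563521 UMIs, and no barcode was shared between them. After filtering and doublet removal 1445 and 1655 cells remained in 11 classes, clustered without the 10 genes and named from other markers. Each class is called by the cell it resembles. They comprise endothelial-like (179 and 163 cells in libraries 1 and 2), pericyte-like (75 and 81), mesothelial-like (67 and 177), fibroblast-like (468 and 550), macrophage-like (122 and 129), monocyte-like (81 and 136), dendritic-like (31 and 45), B-like (134 and 102), T-like (105 and 139), NK or ILC1-like (112 and 74) and ILC2-like cells (71 and 59). Some classes carried markers of another. In the pericyte-like cells, all 14 endothelial markers stood more than 2-fold above their level in the pooled UMIs of all other cells. Their summed level there was 8260 and 7469 counts per 1000000 UMIs (CPM), against 12532 and 9423 CPM in the endothelial-like cells. The 11 pericyte markers were summed at 5057 and 4948 CPM in the pericyte-like cells, against 342 and 428 CPM in the endothelial-like cells. Adipocyte markers reached 549 and 1072 CPM and erythroid markers 12.4 and 23486 CPM in endothelial-like cells, and fibroblast markers 6424 and 8575 CPM in monocyte-like cells, against 43692 and 39401 CPM in fibroblast-like cells. A level in CPM below is the UMIs of a gene per 1000000 UMIs of all cells of a class in a library. UMIs tag 1 end of a transcript, so a level does not scale with its length, but capture can differ between genes, and levels are compared between classes and not between genes.

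The receptor kinases were highest in the vascular cells. Flt1 had 1394 CPM in the endothelial-like cells of library 1 and 1234 CPM in those of library 2, a mean of 1314 ± 113 CPM (SD, n = 2), with 93.6 and 99.9 CPM over all cells outside that class. The pericyte-like cells followed at 1115 and 1206 CPM. Every other class was at or below 51.8 CPM, and no UMI of Flt1 was found in B-like or ILC2-like cells. Kdr had 561 and 692 CPM in endothelial-like cells (627 ± 92.4, SD, n = 2) and 438 and 600 CPM in pericyte-like cells, so these classes overlapped, while cells outside the endothelial-like class had 44.9 and 71.2 CPM. Flt4, the receptor of VEGF-C and VEGF-D, was sparse. It had 24.9 and 48.0 CPM in endothelial-like cells (12 and 24 UMIs) and 32.1 and 55.4 CPM in pericyte-like cells (11 and 19 UMIs), and no other class passed 1.98 CPM. Both vascular classes were therefore the highest for all 3 kinases in both libraries.

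**Figure D1:**
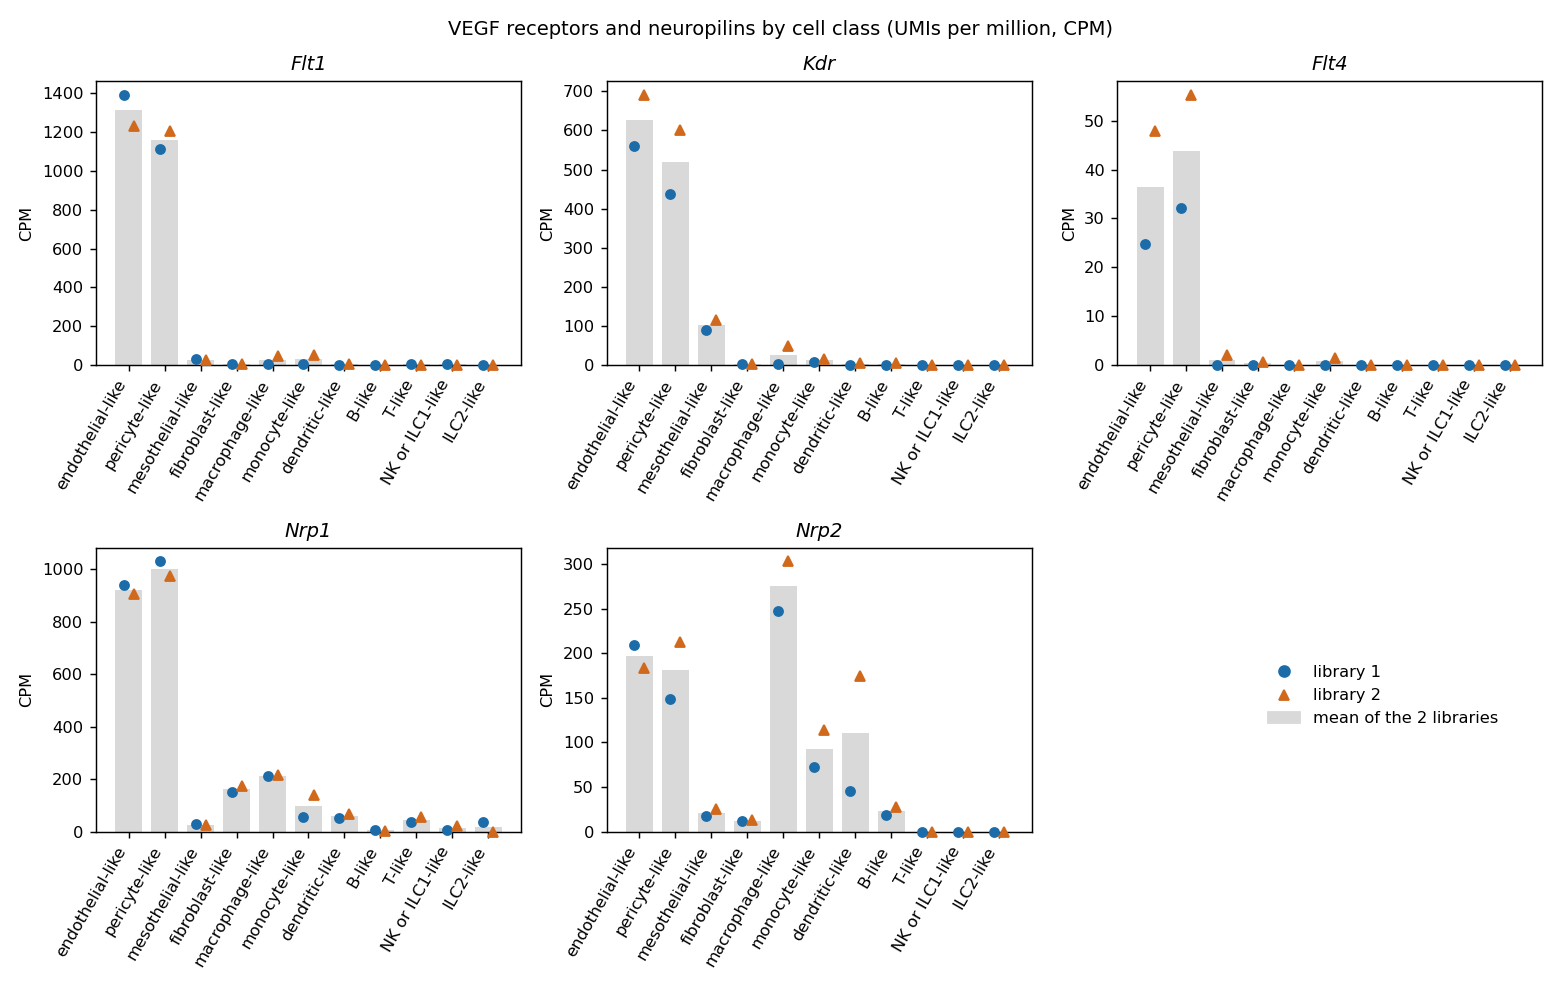
Levels of the receptor kinases Kdr, Flt1 and Flt4 and of the neuropilins Nrp1 and Nrp2 by cell class, in CPM (vertical axes). Points are the libraries and bars their mean. Endothelial-like and pericyte-like cells are highest for the kinases and Nrp1, mesothelial-like cells come next for Kdr at 89.5 and 115 CPM, and macrophage-like cells are highest for Nrp2 at 247 and 303 CPM.

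In edgeR's quasi-likelihood test on the summed counts, each class was set against the mean of the other 10 classes on a log scale, each class weighing the same. A gene was called when its Benjamini-Hochberg adjusted p was below 0.05. Of the 10 genes, 9 passed the filter on low counts, and Vegfb did not. In endothelial-like cells 7 of these 9 were called higher and 0 lower, where 38.3% of the 7642 genes tested were called, 26.4% higher and 11.9% lower. The median log2 fold change of the 9 was 3.82, against 0.12 over all genes tested. The kinases were higher by a log2 fold change of 7.43 ± 0.247 for Flt1 (SE, adjusted p = 1.09e-25), 6.85 ± 0.221 for Kdr (adjusted p = 1.09e-25) and 5.65 ± 0.685 for Flt4 (adjusted p = 1.15e-08). The neuropilins, Pgf and Vegfc were called higher as well. Classes without a UMI of a gene enter this mean, so the fitted sizes are no bounds, and the SEs beside them do not cover this. Vegfa had no usable error in endothelial-like cells (−0.68, SE 16.0), so that it was not called lower says nothing of a difference. In pericyte-like cells 6 of 9 were called higher, where 40.6% of all genes were called, 28.1% higher and 12.6% lower, among them Flt1 at 7.15, Kdr at 6.48, Flt4 at 5.87, Nrp1 at 3.87 and Nrp2 at 3.60 on the log2 scale.

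Between endothelial-like and pericyte-like cells 0 of 9 were called by edgeR, where 3.62% of all genes were, 0.877% higher and 2.75% lower, and DESeq2's Wald test also called 0. At an unadjusted p under 0.05 there were 2. These were Kdr, higher in endothelial-like cells by 0.34 ± 0.154 (adjusted p = 0.322), and Vegfa at −1.61 ± 0.716 (adjusted p = 0.314). Flt1 did not overlap between the classes, yet its log2 fold change of 0.25 ± 0.247 was not called (adjusted p = 0.764). Endothelial transcripts were also found in most cells of the pericyte-like class. A UMI of Pecam1, Cdh5, Cldn5 or Egfl7, genes that mark endothelium, was held by 74 of 75 and 76 of 81 pericyte-like cells. In the endothelial-like class, 178 of 179 and 161 of 163 cells held one. The part of endothelial transcripts in the receptor levels of the pericyte-like class was not tested, since only 6 pericyte-like cells held none of these UMIs.

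Per cell, Flt1 and Nrp1 were detected most often. Each cell was thinned to 1000 UMIs, which left out 6 and 9 endothelial-like cells. Of the remaining 173 and 154, Flt1 was detected in 65.3% and 65.6%, Nrp1 in 59.5% and 61.0%, and Kdr in 41.6% and 53.2%. Nrp2 followed with 17.9% and 10.4%, and Flt4 with 1.16% and 4.55%. In T-like cells no UMI of Kdr, Flt1, Flt4 or Nrp2 was found in 101 and 129 thinned cells, which allows shares of cells with a UMI at this depth of up to 2.97% and 2.33%, and Nrp1 was detected in 1.98% and 3.88%. The share of endothelial-like cells with Flt4 lay below that limit in library 1 and above it in library 2. Median depths before thinning were 2153 and 2323 UMIs in endothelial-like cells and 1706 and 1570 in T-like cells. Kdr and Flt1 were both detected in 24.9% and 37.0% of the endothelial-like cells, where the product of their single shares gives 27.2% and 34.9%. Without thinning, averaged over the libraries, 86.6% of endothelial-like cells held a UMI of Flt1 and 72.7% one of Kdr.

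Within the endothelial-like class, clustering at a resolution of 0.5 without the 10 genes gave 5 sub-clusters of 175, 67, 61, 23 and 16 cells. Flt1 was 1883 and 1464 CPM in the sub-cluster of 67 cells led by Stmn2, Sema3g and Plvap, against 1252 and 1144 CPM in the largest, without overlap. Nrp2 was 331 and 270 CPM in the sub-cluster of 61 cells led by Cd74 and H2-Aa, against 84.6 and 175 CPM in that of 67 cells, without overlap. Pgf had 208 and 52.2 CPM in the Cd74 sub-cluster (17 and 6 UMIs), while the largest sub-cluster had 11.3 and 0 CPM. Flt4 was at 12.3 and 17.4 CPM in the Cd74 sub-cluster (1 and 2 UMIs), against 63.5 and 66.3 CPM in that led by Stmn2 (6 and 11 UMIs), counts too low to order the sub-clusters. Kdr was lower in the sub-cluster with Cd74 in library 1, at 380 CPM, but at 635 CPM in library 2 it overlapped with the others. The smallest sub-clusters carried adipocyte markers (23 cells, led by Car3) and fibroblast markers (16 cells, led by Col3a1). Among the leading genes of the Cd74 sub-cluster were also Lcp1 and the pericyte marker Gm13889. Whether transcripts of other cells had a part in its Nrp2 and Pgf levels was not tested. With 2 libraries these differences are values and were not tested.

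**Figure D2:**
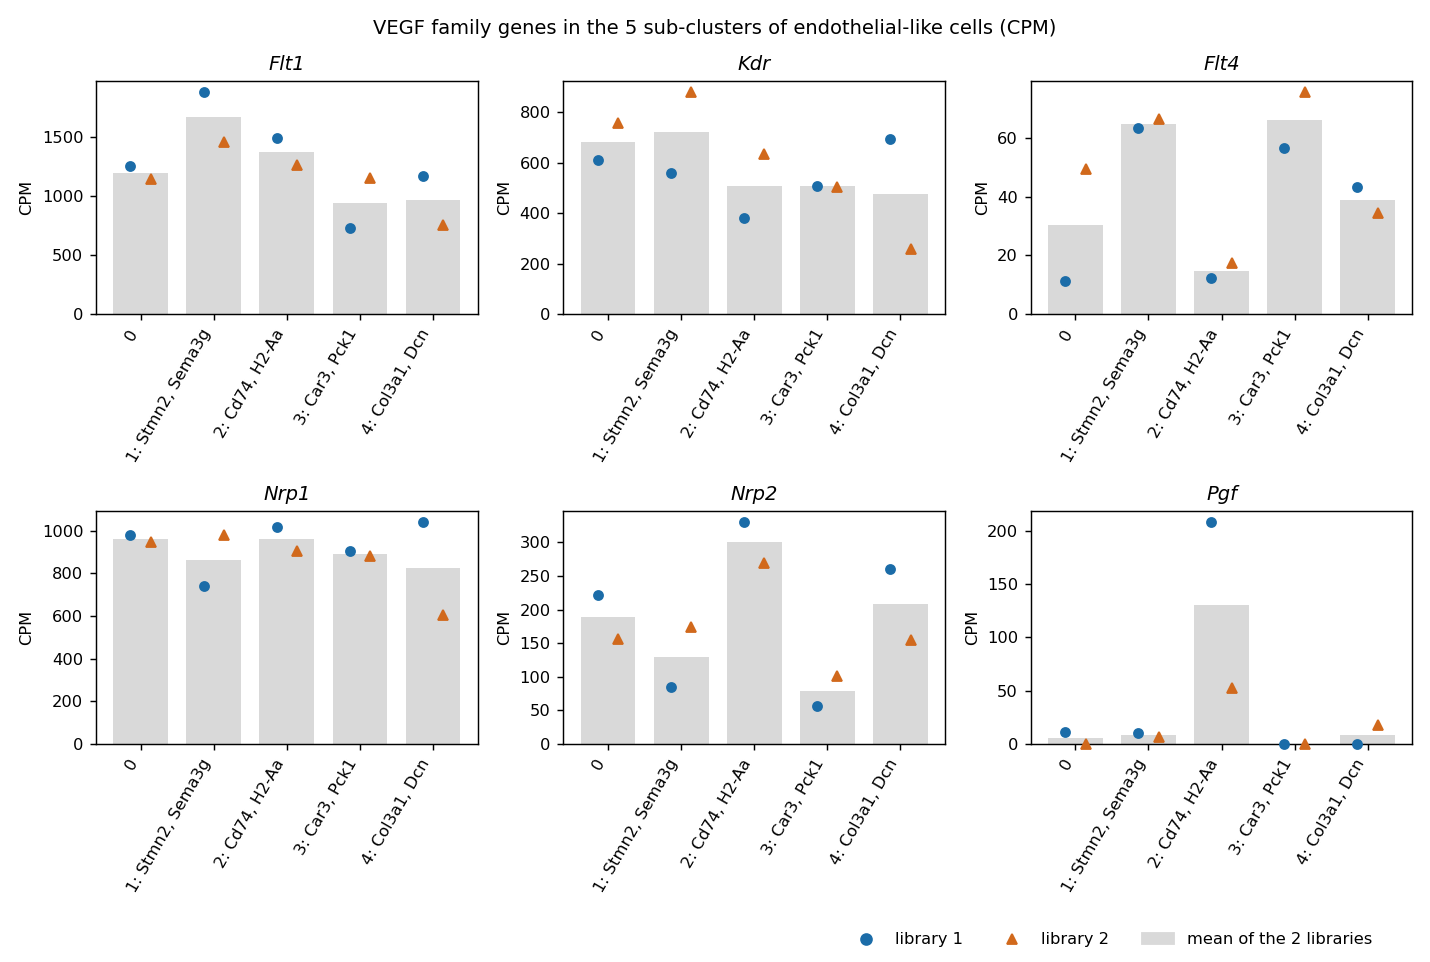
Levels of the VEGF receptors, the neuropilins and Pgf in the 5 sub-clusters of endothelial-like cells, in CPM (vertical axes). Points are the libraries and bars their mean. Nrp2 and Pgf are highest in the sub-cluster led by Cd74, and Flt1 in that led by Stmn2.

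Flt4 is a textbook receptor of lymphatic endothelium, so lymphatic cells were looked for. A single endothelial-like cell, in library 2, held UMIs of at least 2 of 7 lymphatic markers. It held 3 UMIs of Flt4, 5 of Nrp2 and 4 of Kdr, with none of Flt1 or Nrp1. The remaining endothelial-like cells held 12 UMIs of Flt4 in library 1 and 21 in library 2. Lymphatic endothelium itself could not be described from 1 cell.

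Mesothelial-like cells, which resemble the lining of the peritoneal surface, came next for Kdr. The class had 89.5 and 115 CPM (40 and 116 UMIs), held by 26 of 67 and 72 of 177 cells, with at most 4 and 7 UMIs in a cell. Every further class was lower in both libraries. Thinned to 1000 UMIs, 7.58% and 12.5% of mesothelial-like cells held a UMI of Kdr, and none of 101 and 129 T-like cells did, with median depths before thinning of 6780 and 5771 UMIs in mesothelial-like cells. Flt1 was at 29.1 and 25.8 CPM in mesothelial-like cells and did not separate them from monocyte-like cells (6.54 and 51.8 CPM). Of the UMIs of Kdr and Flt1 together, Kdr made up 75.5% in library 1 (95% exact binomial interval, 61.7 to 86.2%) and 81.7% in library 2 (74.3 to 87.7%) of mesothelial-like cells. In endothelial-like cells it made up 28.7% (25.8 to 31.7%) and 35.9% (32.9 to 39.1%). The intervals cover counting error only, and those of the mesothelial-like and endothelial-like cells did not overlap. They take UMIs as independent, while the 13 and 26 UMIs of Flt1 in mesothelial-like cells lay in 2 and 6 cells. The spread between cells is therefore not covered.

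Endothelial markers were low in the mesothelial-like cells. Summed, the 14 of them came to 188 and 215 CPM, against 12532 and 9423 CPM in endothelial-like cells. Plvap was the 1 of the 14 at 0, and their median level was 1.17% and 1.61% of that in endothelial-like cells, with 7.98% and 12.1% as the highest. Kdr stood at 16.0% and 16.6% of its endothelial-like level and Flt1 at 2.09% in both libraries. When all cells holding a UMI of Pecam1, Cdh5, Cldn5 or Egfl7 were left out, 211 of 244 mesothelial-like cells remained. Kdr was then 83.1 and 105 CPM (30 and 90 UMIs). Flt1 was 0 and 1.17 CPM (0 and 1 UMIs, against 13 and 26 with all cells), and Nrp1 was 0 and 4.68 CPM, against 29.1 and 24.8 CPM with all cells. Kdr was about as high without these cells, and Flt1 and Nrp1 were near 0. Leaving out these cells was chosen after seeing the data. The part of endothelial transcripts in the Kdr, Flt1 and Nrp1 levels was not tested.

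**Figure D3:**
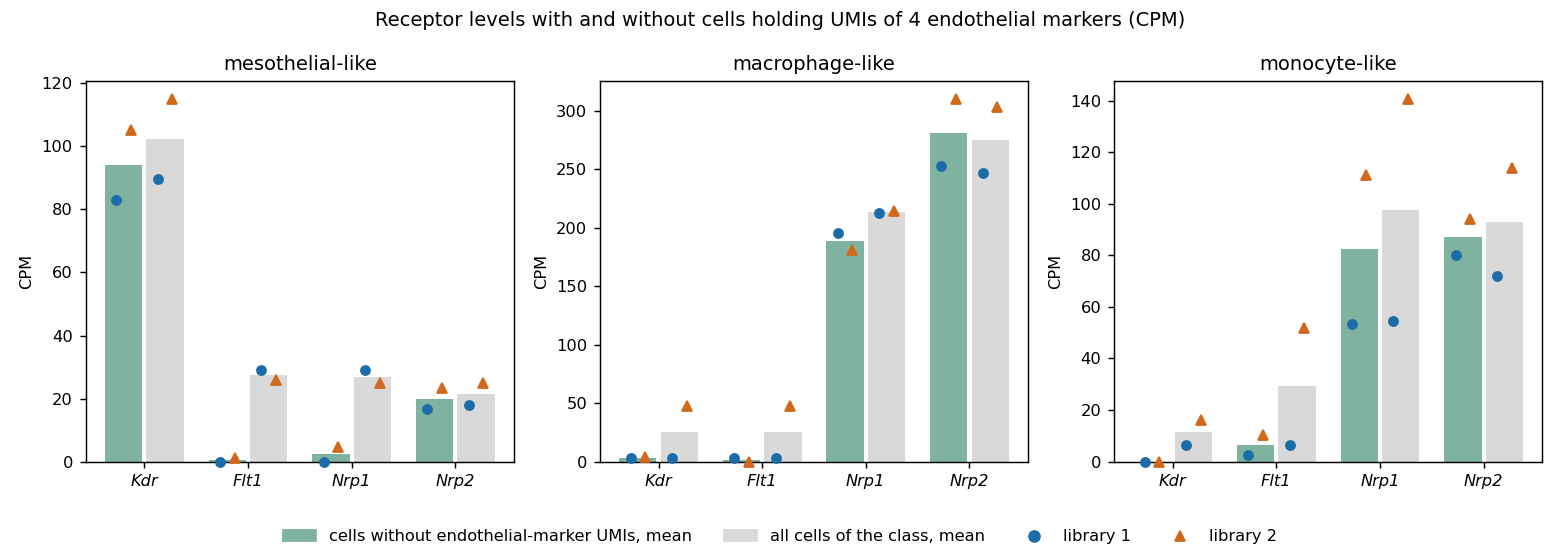
Levels of Kdr, Flt1, Nrp1 and Nrp2 in mesothelial-like, macrophage-like and monocyte-like cells, in CPM (vertical axes), for cells without a UMI of Pecam1, Cdh5, Cldn5 or Egfl7 (green) beside all cells of the class (grey). Points are the libraries and bars their mean. Kdr of mesothelial-like cells stays at 83.1 and 105 CPM, whereas their Flt1 is at 0 and 1.17 CPM.

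Against the mean of the other classes, 4 of the 9 genes were called higher and 1 lower in mesothelial-like cells, where 47.6% of all genes were called, 33.0% higher and 14.6% lower. Kdr was higher by 4.05 ± 0.371 on the log2 scale (adjusted p = 4.59e-12), and Nrp1 was the gene called lower (−1.76, adjusted p = 2.65e-05). Against all remaining cells summed, which include the endothelial-like ones, Kdr was at −0.29 and was not called (adjusted p = 0.0904). Set against fibroblast-like cells alone, the other stromal class, 3 of 9 were higher and 3 lower, where 34.2% of all genes were called, 16.8% higher and 17.4% lower. Kdr was higher by 5.15 ± 0.378 (adjusted p = 2.18e-14), with 1.13 and 3.47 CPM in fibroblast-like cells. Flt1 was also called higher (2.29, adjusted p = 0.00103), but not with the stricter cell filter (1.56, adjusted p = 0.10) or by the Wald test. Nrp1 was lower in mesothelial-like cells, with a log2 fold change of −2.80 (adjusted p = 7.35e-10), at 29.1 and 24.8 CPM against 149 and 175 CPM in fibroblast-like cells.

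Nrp1, which binds VEGF-A beside VEGFR2, was highest in the vascular classes. It had 938 and 904 CPM in endothelial-like cells and 1030 and 973 CPM in pericyte-like cells, with 172 and 171 CPM over all cells outside the endothelial-like class. Macrophage-like cells had 213 and 215 CPM and fibroblast-like cells 149 and 175 CPM. Monocyte-like cells, at 54.5 and 141 CPM, lay below both. The log2 fold change of Nrp1 against the other classes was 3.80 ± 0.172 in endothelial-like (adjusted p = 3.52e-22) and 1.32 ± 0.203 in fibroblast-like cells (adjusted p = 5.11e-07). It was lower in B-like cells (−3.80, adjusted p = 3.09e-06) and in NK or ILC1-like cells (−2.90, adjusted p = 0.000345). Nrp1 was the 1 gene of 9 called in each of these lymphoid classes, where 23.9% of all genes were called in B-like cells (15.4% higher, 8.49% lower) and 17.5% in NK or ILC1-like cells (11.9% higher, 5.67% lower). In T-like cells 0 of 9 were called by edgeR, where 18.9% of all genes were (14.2% higher, 4.78% lower), with 1 (Nrp1) at an unadjusted p under 0.05 and 2 called by the Wald test. Few or no UMIs of most of the other genes were found in these 3 classes, and their fits had no usable error: this held for all 9 but Nrp1 in T-like cells, all but Nrp1, Figf and Nrp2 in B-like cells, and all but Nrp1, Vegfa and Vegfc in NK or ILC1-like cells. That they were not called therefore says nothing of a difference. Set against the sum of all remaining cells, 8 of the 10 genes were called in T-like, 8 in B-like and 5 in NK or ILC1-like cells. The genes called in all were 3931 in T-like (1246 higher, 2685 lower) and 4408 in B-like cells (1332 higher, 3076 lower). In NK or ILC1-like cells they were 3165 (978 higher, 2187 lower). The counts of the 10 genes cover both directions, and the share of all genes tested is not given for this setting. They are therefore no result about the 10 genes. Against all remaining cells summed, Nrp1 in fibroblast-like cells turned to −0.67.

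Nrp2 had another order. It was highest in macrophage-like cells at 247 and 303 CPM (86 and 89 UMIs, held by 53 of 122 and 54 of 129 cells), with 50.2 and 62.8 CPM over all other cells. Endothelial-like cells had 209 and 184 CPM and pericyte-like cells 149 and 213 CPM, and these overlapped each other. Dendritic-like cells had 45.3 and 175 CPM, where 13 of the 29 UMIs of library 2 lay in 1 cell, and monocyte-like cells 72.0 and 114 CPM. No UMI of Nrp2 was found in T-like, ILC2-like or NK or ILC1-like cells. After thinning to 1000 UMIs, Nrp2 was detected in 25.4% and 24.8% of macrophage-like cells. Macrophage-like cells thus stood above both vascular classes without overlap, a difference that was not tested directly.

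Macrophage-like cells had 3 of 9 genes called higher and 1 lower, where 28.5% of all genes were called, 20.9% higher and 7.64% lower. Nrp2 was higher by 4.70 ± 0.288 on the log2 scale (adjusted p = 6.04e-17) and Nrp1 by 1.84 ± 0.242 (adjusted p = 3.22e-08). Without cells holding UMIs of the 4 endothelial markers, Nrp2 was at 253 and 310 CPM and Nrp1 at 196 and 181 CPM. Kdr, called higher at 2.02 (adjusted p = 0.0296), rested on library 2, where 14 UMIs lay in 6 cells and 7 of them in 1 cell, with 1 UMI in library 1. Without cells holding endothelial UMIs it was 3.01 and 3.69 CPM, against 2.87 and 47.7 CPM in all macrophage-like cells, and the call was lost with other settings for clustering, doublets, cell filter and test. Vegfa was the gene called lower in macrophage-like cells (adjusted p = 0.0105), where it had no UMI, so its fitted size is no bound. In monocyte-like cells 4 of 9 were called higher, where 30.3% of all genes were called, 26.0% higher and 4.29% lower. Nrp2 was higher by 2.86 ± 0.383 (adjusted p = 1.02e-07). Their Flt1 call (1.73, adjusted p = 0.0311) rested on library 2, where 35 UMIs lay in 12 of 136 cells. Flt1 was 2.43 and 10.3 CPM without cells holding endothelial UMIs, and its log2 fold change was −0.44 with the stricter cell filter. In dendritic-like cells Nrp2 alone was called of the 9 (3.31 ± 0.508, adjusted p = 2.58e-06), where 18.0% of all genes were called, 14.0% higher and 4.02% lower. All others but Nrp1 had fits without a usable error in dendritic-like cells, so that they were not called says nothing of a difference.

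The UMIs of Figf, Vegfa and Vegfc lay mostly in fibroblast-like and mesothelial-like cells. Figf, which encodes VEGF-D, had 96.2 and 101 CPM in mesothelial-like cells (43 and 102 UMIs) and 56.0 and 50.3 CPM in fibroblast-like cells (99 and 87 UMIs), without overlap. These classes together held nearly all of its 347 UMIs, the mesothelial-like class 41.8% and the fibroblast-like class 53.6%. The next class, monocyte-like, had 0 and 13.3 CPM, and 5 classes had no UMI at all. Figf was called higher in monocyte-like cells (2.34, adjusted p = 0.046), but all 9 of its UMIs in monocyte-like cells were in library 2, and the value was −1.58 without doublet removal and −1.09 with the stricter cell filter. Figf was higher against the other classes by 6.19 ± 0.435 in mesothelial-like (adjusted p = 7.47e-15) and by 5.40 ± 0.441 in fibroblast-like cells (adjusted p = 3.57e-13). The difference of mesothelial-like against fibroblast-like cells was 0.72 ± 0.249 (adjusted p = 0.0232), and it was not called with no filter on low counts (adjusted p = 0.0734) or by the Wald test (adjusted p = 0.808). The fibroblast markers of mesothelial-like cells came to 14992 and 13749 CPM, against 43692 and 39401 CPM in fibroblast-like cells, and their part in the Figf level was not tested. A UMI of Figf was held by 30 of 67 and 67 of 177 mesothelial-like cells, against 76 of 468 and 66 of 550 fibroblast-like cells. The mesothelial-like cells were deeper, however, and after thinning to 1000 UMIs the shares were 4.55% and 8.52% of mesothelial-like and 5.84% and 5.85% of fibroblast-like cells.

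**Figure D4:**
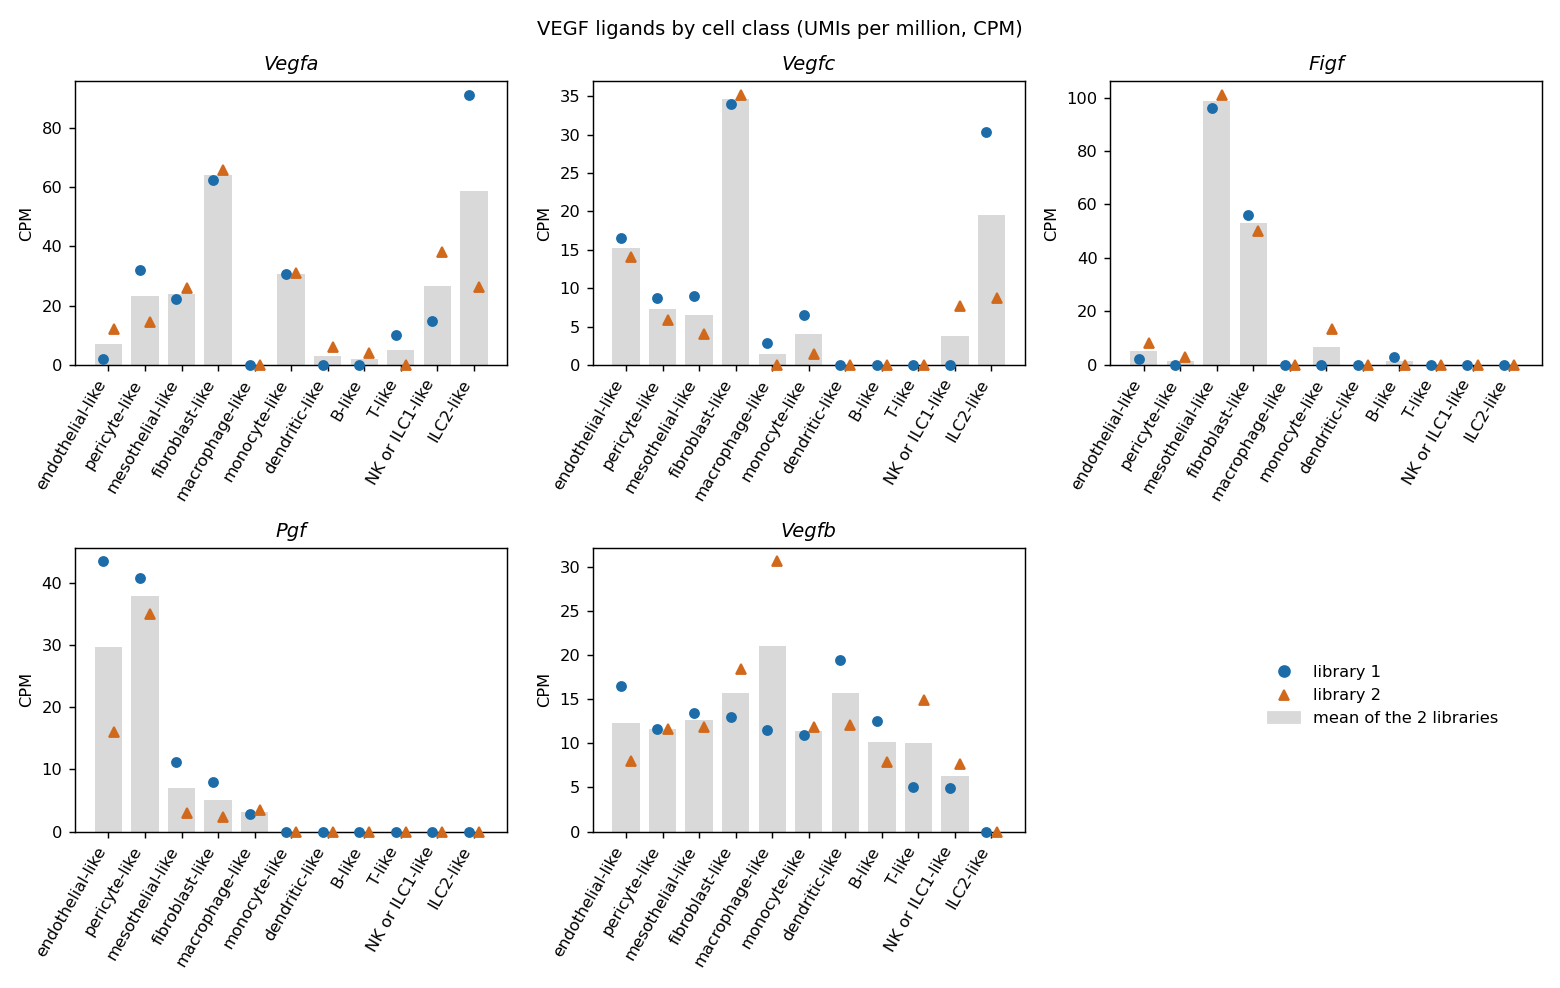
Levels of the VEGF ligands by cell class, in CPM (vertical axes). Points are the libraries and bars their mean. Figf is highest in mesothelial-like and fibroblast-like cells, Vegfc in fibroblast-like cells, and Pgf in pericyte-like and endothelial-like cells, while the ILC2-like values of Vegfa (91.2 and 26.3 CPM) differ between the libraries.

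Vegfa had its most UMIs in fibroblast-like cells, at 62.3 and 65.9 CPM (110 and 114 UMIs), which is 64.9% of its UMIs, against 17.2 and 18.1 CPM over all other cells. It was held by 84 of 468 and 88 of 550 cells. ILC2-like cells had 91.2 CPM in library 1 (12 UMIs in 9 of 71 cells) and 26.3 CPM in library 2 (3 UMIs in 3 of 59 cells), a range that spans the fibroblast-like values. Monocyte-like cells had 30.5 and 31.1 CPM, mesothelial-like cells 22.4 and 25.8 CPM, and NK or ILC1-like cells 14.8 and 38.2 CPM on 3 and 5 UMIs. Endothelial-like cells had 2.07 and 12 CPM (1 and 6 UMIs) and pericyte-like cells 32.1 and 14.6 CPM (11 and 5 UMIs), a difference that was not called. Macrophage-like cells held no UMI of Vegfa in 122 and 129 cells, where 3 counts would be 8.62 and 10.2 CPM. The gene was therefore not detected in macrophage-like cells at this depth.

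In fibroblast-like cells 5 of 9 genes were called higher and 0 lower, where 50.4% of all genes were called, 35.2% higher and 15.1% lower, with a median of 1.32 for the 9 and 0.16 for all genes. The fits of Kdr (−1.62, SE 18.8), Flt1 (−1.20, SE 22.5) and Flt4 (−0.77, SE 2.17) had errors larger than their sizes. That none of these was called lower therefore says nothing of a difference. Vegfa was higher by 3.02 ± 0.289 (adjusted p = 6.81e-12). In ILC2-like cells 2 of 9 were higher and 1 lower, where 16.2% of all genes were called, 11.2% higher and 4.97% lower. Vegfa was higher there by 3.02 ± 0.634 (adjusted p = 0.000336) and Vegfc by 3.19 ± 1.01 (adjusted p = 0.0235), on 15 and 5 UMIs in all. Against all remaining cells summed, neither was called in ILC2-like cells (1.07 for Vegfa and 0.55 for Vegfc). Nrp1 was called lower in ILC2-like cells (−1.87, adjusted p = 0.029), a value that turned to 0.33 without doublet removal. All genes but Nrp1, Vegfa and Vegfc had fits without a usable error in ILC2-like cells, so that they were not called says nothing of a difference. Monocyte-like cells were higher for Vegfa by 1.81 ± 0.455 (adjusted p = 0.0017), a call not made without doublet removal (1.00, adjusted p = 0.0864) or with the stricter cell filter (0.77, adjusted p = 0.459). Fibroblast markers in monocyte-like cells were summed at 6424 and 8575 CPM, and their part in this level was not tested. Vegfa was lower in mesothelial-like than in fibroblast-like cells, with a log2 fold change of −1.53 ± 0.317 (adjusted p = 0.000132). Against the mean of all other classes Vegfa was called higher in mesothelial-like cells (1.33, adjusted p = 0.0136), a call not made without doublet removal (0.67, adjusted p = 0.117). When the remaining cells were summed it turned to −0.63, which was called lower (adjusted p = 0.046).

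Vegfc was highest in fibroblast-like cells. It had 34.0 and 35.2 CPM there (60 and 61 UMIs in 52 and 54 cells), 75.6% of its UMIs, against 7.46 and 4.26 CPM in all other cells. Endothelial-like cells had 16.6 and 14 CPM on 8 and 7 UMIs, mesothelial-like cells 8.95 and 3.97 CPM on 4 UMIs each, and no UMI was found in B-like, T-like or dendritic-like cells. The fibroblast-like cells were above every other class in both libraries. Their log2 fold change was 3.97 ± 0.422 (adjusted p = 1.84e-10), and mesothelial-like cells were lower than fibroblast-like cells, with a log2 fold change of −2.70 ± 0.503 (adjusted p = 3.23e-05). Endothelial-like cells were called higher against the mean of the other classes (2.41 ± 0.684, adjusted p = 0.00423), but against the remaining cells summed the value was −0.10.

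Pgf, the placental growth factor, was the ligand of the vascular classes, on few UMIs. It had 43.5 and 16.0 CPM in endothelial-like cells (21 and 8 UMIs in 7 and 5 cells) and 40.8 and 35.0 CPM in pericyte-like cells. The pericyte-like UMIs, 14 and 12, lay in 2 cells of each library. Mesothelial-like cells had 11.2 and 2.97 CPM and fibroblast-like cells 7.93 and 2.31 CPM, and the 6 classes of lymphoid, monocyte-like and dendritic-like cells had none. Pgf was called higher in endothelial-like (4.65 ± 0.711, adjusted p = 1.15e-06) and pericyte-like cells (5.03 ± 0.724, adjusted p = 3.88e-07). Its calls in mesothelial-like (2.38, adjusted p = 0.0312) and fibroblast-like cells (2.19, adjusted p = 0.0214) were lost with the Wald test and the stricter cell filter. When the remaining cells were summed, the mesothelial-like value turned to −0.53 and the fibroblast-like value to −0.82.

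Vegfb, the other ligand of VEGFR1, showed no order between classes. Its 137 UMIs gave 11.5 and 30.7 CPM in macrophage-like cells, 13 and 18.5 CPM in fibroblast-like cells and 16.6 and 8.0 CPM in endothelial-like cells. From macrophage-like down to NK or ILC1-like cells, each class overlapped the next, and no UMI was found in ILC2-like cells, where 3 counts would be 22.8 and 26.3 CPM.

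Inside the fibroblast-like class the ligands were spread unevenly over 4 clusters, named here by their leading genes. Figf and Vegfc were highest in the cluster with Mfap4 and Mgp (159 cells) at 107 and 116 CPM and at 70.3 and 75.9 CPM. The cluster with Cxcl14 and Inmt (347 cells) was next, with 87.3 and 75.8 CPM of Figf and 38.3 and 46.2 CPM of Vegfc. The cluster with Pi16 and Krtdap (296 cells) had the reverse: 23.4 and 12.5 CPM of Figf, 13.2 and 12.5 CPM of Vegfc, and the highest Vegfa at 110 and 92.9 CPM. The cluster with Thbs1 and Tnfaip6 (216 cells) lay between, at 31.7 and 26.3 CPM of Figf, 38.0 and 26.3 CPM of Vegfc and 60.2 and 55.2 CPM of Vegfa. Nrp1 was 185 and 235 CPM in the Cxcl14 cluster and 119 and 120 CPM in the Pi16 cluster. Vegfa was 14.9 and 53.6 CPM in the Cxcl14 cluster and 30.1 and 47.9 CPM in the Mfap4 cluster. The 10 genes took no part in the clustering.

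**Figure D5:**
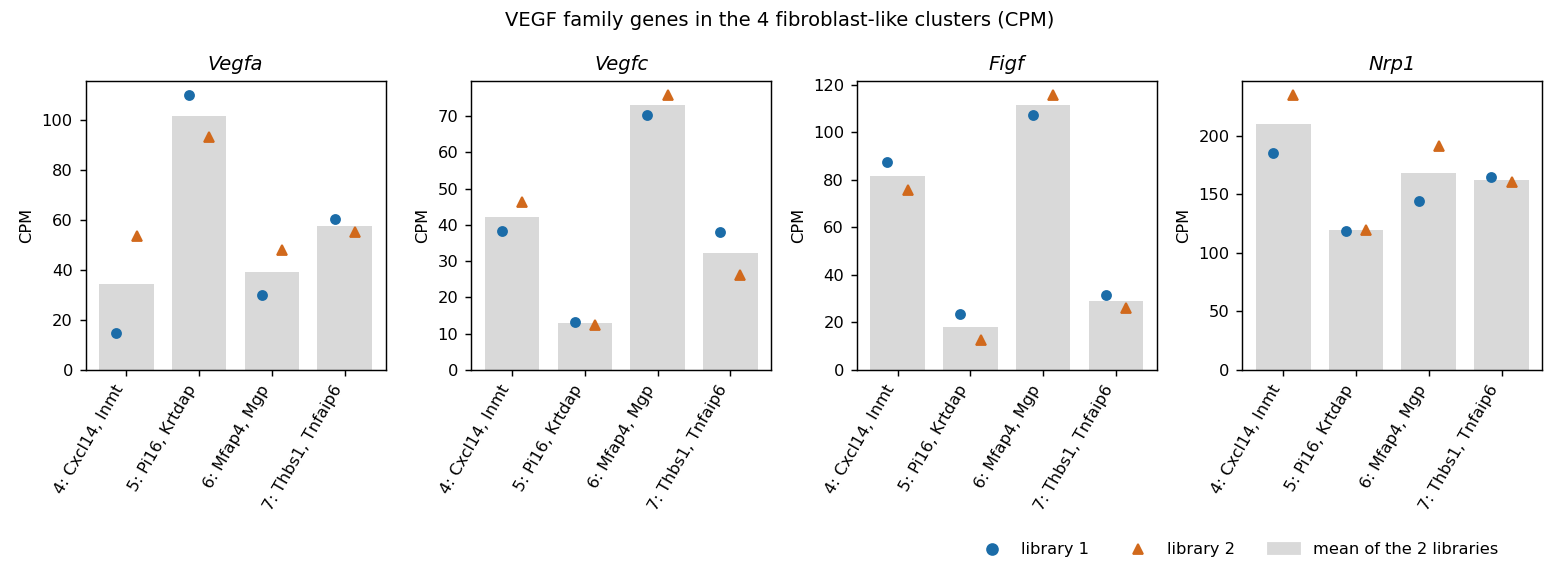
Levels of Vegfa, Vegfc, Figf and Nrp1 in the 4 fibroblast-like clusters, in CPM (vertical axes). Points are the libraries and bars their mean. Vegfa is highest in the Pi16 cluster, where Vegfc and Figf are lowest, and Vegfc and Figf are highest in the Mfap4 cluster.

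Each cluster was tested against the mean of the other 3, and 4 of the 10 genes passed the filter on low counts. In the Pi16 cluster 1 of 4 was higher and 3 lower, where 22.4% of the 5634 genes tested were called, 10.8% higher and 11.5% lower. Vegfa was higher by 1.21 ± 0.239 (adjusted p = 0.000188), and Figf (−1.84 ± 0.293, adjusted p = 6.85e-06), Vegfc (−1.87 ± 0.340, adjusted p = 5.63e-05) and Nrp1 (−0.63 ± 0.158, adjusted p = 0.00281) were lower. In the Mfap4 cluster 2 were higher, where 5.54% of all genes were called (3.85% higher, 1.69% lower), namely Figf by 1.64 ± 0.254 (adjusted p = 1.81e-05) and Vegfc by 1.47 ± 0.304 (adjusted p = 0.00125). In the Cxcl14 cluster 2 were higher, where 13.2% were called (7.77% higher, 5.4% lower), namely Figf by 1.09 ± 0.231 (adjusted p = 0.000727) and Nrp1 by 0.54 ± 0.149 (adjusted p = 0.0105). In the Thbs1 cluster 0 of 4 were called by edgeR, where 2.2% of all genes were (1.69% higher, 0.515% lower), with 1 (Figf, −0.89) at an unadjusted p under 0.05. DESeq2's Wald test kept Figf and Vegfc of the Pi16 cluster and Figf of the Mfap4 cluster, and it did not call Vegfa (1.25, adjusted p = 0.0659) or Nrp1 (−0.64, adjusted p = 0.143) of the Pi16 cluster, Vegfc of the Mfap4 cluster (adjusted p = 0.123) or either gene of the Cxcl14 cluster.

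Over the 22 sums of class and library, the genes most like each of these were found by Pearson's r of log2(CPM + 10). The sums share their libraries and depths, and r is a description. Kdr was most like Tspan7, Esam and Adgrf5 (r of 0.99 for all of them), and Flt1 most like Plxna2, Clic5 and Mmrn2 (0.99 for all of them). Flt4 was most like Nova2 (0.99), Gm12002 (0.99) and Angpt2 (0.98), and Nrp1 most like Stard9 (0.94), Cxcl12 and Lrrc8a. Nrp2 was led by Fnbp1l (0.94), Mcl1 and Sdc3. Figf was most like Dmkn, Sema3d and Tmeff2 (0.98 for each). This likeness is between classes: inside the fibroblast-like class, Dmkn was among the leading genes of the Pi16 cluster, where Figf was lowest. Pgf was most like Hoxd3os1 (0.95), Adamts9 and St6galnac2, Vegfc most like P4ha2 (0.84) and Sar1a, Vegfb most like Rnf13 (0.82), Timm22 and Tmem256, and Vegfa most like Spry2 (0.77), Kcnq1ot1 and Mzt2. Between the genes themselves, r was 0.96 for Kdr and Flt1, 0.73 for Vegfa and Vegfc, and 0.43 for Vegfa and Figf.

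The wider pathway was read from 7 lists. Unlike the 10 genes, the genes of these lists took part in the clustering, so their calls describe the classes, and Ptprb, Cdh5 and Tie1 are also markers that named the endothelial-like class. The counts in endothelial-like cells stand beside 26.4% of all genes called higher and 11.9% called lower. There 15 of 29 tested genes of VEGF receptor signalling were higher and 6 lower, with a median log2 fold change of 0.51 against 0.12 for all genes. Ptprb, a phosphatase of the endothelial junction, was higher by 7.47, Cdh5 by 7.26 and Rasip1 by 6.75. Of 12 VEGF-inducible genes 9 were higher and 0 lower (median 3.19), led by the Notch ligand Dll4 (6.72), Angpt2 (6.14), Adamts1 (5.86) and Esm1 (5.24). Of 10 semaphorins and plexins 5 were higher and 0 lower (median 1.52), among them Sema3g (7.01), Plxna2 (6.27) and Sema3f (5.61), and of 4 angiopoietin and Tie genes 3 were higher, including the receptors Tie1 (6.79) and Tek (5.39). Among 17 hypoxia-factor targets and regulators 9 were higher and 2 lower (median 0.52), where 26.4% of all genes were higher and 11.9% lower, with Epas1, which encodes HIF-2 alpha, at 984 and 1082 CPM in endothelial-like and 1170 and 1306 CPM in pericyte-like cells. Pericyte-like cells had 17 of 29 signalling genes higher and 2 lower, and 9 of 12 VEGF-inducible genes higher and 1 lower, where 28.1% of all genes were higher and 12.6% lower. Between the vascular classes, Pik3r1 (−1.32) and Vtn (−6.75) were the called genes of the 7 lists, both lower in endothelial-like cells.

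The stromal classes differed in genes for the processing of VEGF-C and VEGF-D and in genes for VEGF-binding or limiting proteins. Fibroblast-like cells had 3 of 5 tested processing genes higher and 1 lower (median 3.36 against 0.16 for all genes), where 35.2% of all genes were higher and 15.1% lower. Mesothelial-like cells had 4 higher and 1 lower (median 2.15 against 0.17), where 33.0% were higher and 14.6% lower. Set directly against fibroblast-like cells, mesothelial-like cells had 2 of the 5 higher and 3 lower (median −0.90 against −0.01), where 16.8% of all genes were higher and 17.4% lower. Ccbe1, a matrix protein needed to activate VEGF-C, reached 116 and 87.2 CPM in the mesothelial-like class, against 6.79 and 5.20 CPM in fibroblast-like cells, a log2 fold change of 3.85. Pcsk5, a proprotein convertase, was the other way round, with 4.48 and 11.9 CPM in the mesothelial-like class, against 128 and 138 CPM in fibroblast-like cells (−3.96). Furin, another convertase, was highest in ILC2-like cells at 3747 and 3090 CPM and was called higher there by 5.09. It was lower in fibroblast-like (−1.0) and mesothelial-like cells (−1.99). All 7 tested genes of VEGF-binding or limiting proteins were higher in fibroblast-like cells (median 4.90, with 35.2% of all genes higher), led by Dcn (5.47), Thbs1 (5.45) and Cyr61 (4.91), and 6 of the 7 were lower in mesothelial-like than in fibroblast-like cells, where 17.4% of all genes were. Dcn is also a fibroblast marker that helped to name the class, so its direction is no finding.

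Semaphorins, the other ligands of neuropilins, were also found in stromal cells. In mesothelial-like cells 6 of 10 tested genes of that list were higher and 0 lower (median 3.01), where 33.0% of all genes were higher and 14.6% lower, led by Sema3c (6.51), Sema3f (6.47), Sema3d (6.01) and Sema3b (5.86). Sema3c had 192 and 235 CPM in mesothelial-like cells and 196 and 204 CPM in fibroblast-like cells. Sema3f had 91.8 and 73.4 CPM in mesothelial-like cells and 66.3 and 36 CPM in endothelial-like cells, with no UMI in fibroblast-like cells. Cav1, a caveola protein that binds VEGFR2, reached 992 and 1073 CPM in the mesothelial-like class, against 29.4 and 49.7 CPM in fibroblast-like cells, and was at 1129 and 1114 CPM in endothelial-like cells. Of the 29 signalling genes 9 were higher and 5 lower in mesothelial-like than in fibroblast-like cells, with a median of −0.01 against −0.01 for all genes, where 16.8% of all genes were higher and 17.4% lower, so that the lower calls were at the share of all genes. In macrophage-like cells the plexins Plxna4 (3.08), Plxnd1 (2.08) and Plxna1 (2.02) were higher, 3 of the 10 genes of their list, where 20.9% of all genes were called higher.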

How the data were processed

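Whole mesentery of 2 mice was digested and run as single-cell 3′ libraries, 1 per mouse. The authors deposited raw counts of UMIs, genes by barcodes, made with Cell Ranger and build mm10 per the submitters' processing notes. Its version is not stated in what was used here. The 2 libraries share 1 matrix, and the barcode suffix gave the library. No column of another sample was present.

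Barcodes under 200 genes or above 10% mitochondrial UMIs were dropped (61 in all). Scrublet called 39 and 4 doublets at its automatic thresholds, which were removed. Clustering used scanpy 1.11.5 with 2000 variable genes, 30 components, 15 neighbours and Leiden resolution 1.0, without the 10 genes. The 16 clusters were named from markers, of which 165 of 170 matched the matrix. The NK or ILC1-like cluster also held 6 T markers, and the T-like clusters include 1 with 5 ILC2 markers.

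UMIs were summed per library and class (22 sums). edgeR 4.0.16 in R 4.3.3 (quasi-likelihood, TMM, filterByExpr, library as a block) tested each class against the equally weighted mean of the others, with Benjamini-Hochberg adjustment over 7642 genes. The block is the mouse, since each mouse gave every class. Sums of the fibroblast-like clusters were fitted alone (8 sums, 5634 genes, 3 residual degrees of freedom). The SE of an edgeR log2 fold change was computed as its absolute size divided by the square root of the F statistic. With 2 mice, an SD rests on 2 values. CPM was computed from the deposited counts as UMIs per 1000000 of a class in a library, with exact Poisson and Clopper-Pearson intervals, which cover counting error only. The alternatives were DESeq2 1.42.0, other filters, resolutions, doublet handling and thinning. The fits were also run on simulated counts, with an outcome that is not given here. Apart from the changed genes, these counts had the same mean profile in every class and no library effect. They therefore do not test the block or the contrasts with classes that lack a gene. Positions are from GENCODE M21, and promoter windows, matched by symbol for all 10 genes, from RefSeq. Those of the 10 genes that were called in a comparison are named. From each list, up to 4 called genes of the largest absolute log2 fold change were eligible to be named, and levels of Furin, Pcsk5, Ccbe1, Cav1, Sema3c, Sema3f and Epas1 were added. Per gene, the 3 most correlated genes are named. The 10 genes and the lists were chosen with earlier results of these data known.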

Additional observations from a re-analysis of the deposited data

How the results depend on the processing

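Of the alternatives, DESeq2 size factors and no filter on low counts moved no count of calls by over 1.5 times, and each ended 1 of 63 called or directly compared fold changes. The vascular calls of Flt1, Kdr, Flt4, Nrp1 and Nrp2, the fibroblast-like calls of Vegfa, Vegfc and Figf, the mesothelial-like call of Figf and the macrophage-like call of Nrp2 were made under every alternative that gave a test of them. DESeq2's Wald test ended 14 fold changes. It called 2 of the 10 genes in each of B-like, NK or ILC1-like, T-like and monocyte-like cells, 3 in mesothelial-like cells, 0 in the Cxcl14 cluster, 2 in the Pi16 cluster and 1 in the Mfap4 cluster. Its counts over all genes were 143 between endothelial-like and pericyte-like cells (277 in edgeR), 284, 513 and 120 in those 3 clusters (742, 1261 and 312 in edgeR) and 47 in the Thbs1 cluster (124 in edgeR). Shares of all genes tested are not given for the Wald test, so its counts of the 10 genes are no result about them. Without the replicate block the Mfap4 and Thbs1 clusters had 197 and 49 called genes, and the calls of macrophage-like Kdr (adjusted p = 0.067), mesothelial-like Pgf (0.0626) and monocyte-like Figf (0.0524) were not made. The block changed no other call of the 10 genes. Without the pericyte-like class, 32 fold changes kept their direction and call, and the calls of ILC2-like Nrp1 (−1.49, adjusted p = 0.131) and monocyte-like Figf (2.32, adjusted p = 0.063) were not made.

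Against all remaining cells summed, the genes called were 4408 in B-like (8 of the 10), 2340 in ILC2-like (5), 3165 in NK or ILC1-like (5), 3931 in T-like (8) and 3570 in macrophage-like cells. In dendritic-like, fibroblast-like and monocyte-like cells, 4, 8 and 7 of the 10 were called. Counts of the 10 genes in this paragraph take both directions together, without the share of all genes tested. They are therefore no result about the 10 genes. The sum weighs classes by their cells, and 9 log2 fold changes turned sign. They were endothelial-like Vegfc (−0.10), fibroblast-like Pgf (−0.82) and Nrp1 (−0.67), macrophage-like Kdr (−2.08), mesothelial-like Vegfa (−0.63), Pgf (−0.53) and Kdr (−0.29), and monocyte-like Figf (−2.04) and Flt1 (−2.66). Without doublet removal 3, 1, 3 and 2 of the 10 genes were called in B-like, T-like, dendritic-like and monocyte-like cells, ILC2-like Nrp1 was 0.33 and monocyte-like Figf −1.58, and Vegfc of fibroblast-like cells was 33.2 CPM and Nrp1 of macrophage-like cells 236 CPM. With the stricter cell filter 2, 2, 3, 3 and 1 were called in B-like, dendritic-like, fibroblast-like, mesothelial-like and monocyte-like cells. ILC2-like Nrp1 was then 0.39, monocyte-like Figf −1.09 and Flt1 −0.44, with Vegfc of fibroblast-like cells at 33.2 CPM, Pgf of pericyte-like cells at 22.6 CPM and Flt1 of mesothelial-like cells at 13 CPM. At resolution 0.5 there were 815 calls in NK or ILC1-like cells, and 811 with the 10 genes in the clustering (1339 otherwise), and 2 of the 10 genes in monocyte-like cells. At resolution 2.0, 1, 2 and 2 were called in T-like, dendritic-like and monocyte-like cells, and monocyte-like Figf was −0.83. Leaving out 1 library gave −2.27 to 3.29 for monocyte-like Figf and −0.022 to 2.94 for Flt1, as values with no test. The cause of these shifts was not tested.

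Leaving out cells with endothelial UMIs, an alternative chosen after seeing the data, gave 105 CPM of Figf and 0.584 CPM of Flt1 in mesothelial-like cells and 188 CPM of Nrp1 in macrophage-like cells. Depth limits detection. Thinned to 500 UMIs, thinned to 2000 UMIs and not thinned, endothelial-like cells held Kdr in 24.4%, 71.5% and 72.7%, Flt1 in 41.1%, 87.4% and 86.6%, Nrp1 in 33.5%, 83.3% and 82.4%, Nrp2 in 6.06%, 35.7% and 35.9%, and Kdr with Flt1 in 12%, 64.4% and 64.2%, against 47.4%, 65.5%, 60.3%, 14.2% and 30.9% at 1000. Flt4 was detected in 7.47% at 2000 and 8.37% without thinning, against 2.85% at 1000.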
